A study of Mus musculus with 15 samples.

Results

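The ATP-binding cassette (ABC) transporters are membrane proteins that use ATP to move lipids, drugs, dyes, bile constituents and metabolites across membranes. Members were taken as every gene whose symbol has the form Abc, a letter from a to g, then a digit, among the probes of a mouse array. This gave 50 genes on 68 probes, of 21173 named genes and 55681 probes in all. Of the 50 genes, 34 had 1 probe, 15 had 2 probes and Abcc5 had 4. Where several probes passed the detection filter, the brightest over the 15 arrays stood for the gene. The relatives Tap1, Tap2 and Cftr belong to the same superfamily under other names and were not counted as members.

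The arrays measured RNA of endothelial cells sorted from mouse liver, with 3 arrays for each of 5 populations. EC-SP and EC-MP cells came from animals 8 weeks old. The labels write only SP and MP, which are taken to mean side population and main population. The other populations were CD157+CD200+, CD157-CD200+ and CD157-CD200- cells, which were sorted by the surface proteins CD157 and CD200 and whose age the labels do not give beyond adult liver. No population carried a transgene or a treatment according to the labels. The series asked which genes mark endothelial stem cells. The labels speak of independent samples without saying that each came from its own animal, so p-values measure the spread between these samples.

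As background, P-glycoprotein and Abcg2 pump hydrophobic compounds and DNA-binding dyes out of cells, and a side population is by its usual definition the fraction that stains weakly because it exports such a dye. The gate is not in the labels. Where it was a dye gate, the levels of dye pumps in EC-SP are not independent of the sort, whereas the subsets were sorted on surface proteins. In liver, other members secrete phospholipid, bile salts and conjugates into bile, and in vessel walls Abca1 and Abcg1 hand cholesterol to lipoproteins. The level is the log2 of a probe's processed signal relative to the 75th percentile of its array, and a gene was called at an adjusted p under 0.05 over all features of the comparison (limma, Benjamini-Hochberg).

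The promoters of 6 members that differed in the same direction in both sorts are shown first. They are the 250 bases before the annotated start, 5′ to 3′ on the gene's strand, from RefSeq on GRCm38.p6. Capitals mark matches, on either strand, to a CCAAT box (CCAAT), a GC box (GGGCGG) or a TATA box (TATAAA), and no matches overlap. Abcb1a, Abcb1b and Abcb4 lie in this order on chromosome 5, with 2 long noncoding RNA genes between Abcb1a and Abcb1b, and their upstream windows are chr5:8566841-8567090, chr5:8797897-8798146 and chr5:8893471-8893720 (all on the plus strand).
Abcb1a: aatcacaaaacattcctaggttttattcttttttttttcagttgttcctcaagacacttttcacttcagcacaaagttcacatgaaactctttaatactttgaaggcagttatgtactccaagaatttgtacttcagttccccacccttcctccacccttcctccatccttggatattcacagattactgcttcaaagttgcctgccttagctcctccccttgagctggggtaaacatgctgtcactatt
Abcb1b: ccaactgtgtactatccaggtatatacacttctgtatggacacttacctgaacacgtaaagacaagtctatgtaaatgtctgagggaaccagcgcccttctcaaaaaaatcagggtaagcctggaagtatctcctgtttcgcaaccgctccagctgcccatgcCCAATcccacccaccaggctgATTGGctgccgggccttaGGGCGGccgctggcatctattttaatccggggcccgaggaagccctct
Abcb4: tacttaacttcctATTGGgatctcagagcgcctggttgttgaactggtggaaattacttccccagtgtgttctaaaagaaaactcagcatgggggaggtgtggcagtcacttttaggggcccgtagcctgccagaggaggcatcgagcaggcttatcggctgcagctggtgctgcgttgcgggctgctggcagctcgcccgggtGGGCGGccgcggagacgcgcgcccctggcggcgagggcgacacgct
Abca5 is the fourth member shown that was higher in both sorts, from chr11:110337717-110337966 (minus strand). Abca7, from chr10:79996244-79996493 (plus strand), and Abcc2, from chr19:43782058-43782307 (plus strand), were lower in both.
Abca5: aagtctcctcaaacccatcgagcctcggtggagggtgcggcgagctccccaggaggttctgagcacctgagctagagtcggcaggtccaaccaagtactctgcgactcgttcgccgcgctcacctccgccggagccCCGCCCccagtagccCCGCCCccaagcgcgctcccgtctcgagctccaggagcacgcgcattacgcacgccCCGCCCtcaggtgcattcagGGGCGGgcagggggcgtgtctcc
Abca7: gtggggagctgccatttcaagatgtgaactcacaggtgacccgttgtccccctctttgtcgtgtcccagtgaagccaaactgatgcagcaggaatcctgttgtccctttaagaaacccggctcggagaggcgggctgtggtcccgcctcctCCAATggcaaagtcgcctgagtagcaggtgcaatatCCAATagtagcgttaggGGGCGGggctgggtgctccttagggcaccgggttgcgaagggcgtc
Abcc2: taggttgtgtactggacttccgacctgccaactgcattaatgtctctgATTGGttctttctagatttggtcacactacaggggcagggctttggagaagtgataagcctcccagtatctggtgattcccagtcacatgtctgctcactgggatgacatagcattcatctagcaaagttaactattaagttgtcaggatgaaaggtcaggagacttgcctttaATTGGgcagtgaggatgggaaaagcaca
The 6 windows differ in these letters. The Abcb1a window holds no match and has 40.4% G and C, whereas its neighbours Abcb1b (2 CCAAT boxes and 1 GC box, 52.8% G and C) and Abcb4 (1 of each, 61.6%) hold both kinds. The Abca5 window holds 4 GC boxes and 69.2% G and C, the Abca7 window 2 CCAAT boxes and 1 GC box, and the Abcc2 window 2 CCAAT boxes. None of the 6 has TATAAA. Abcg2 has 3 annotated starts, whose windows hold 0, 2 and 4 GC boxes, and none is printed. Of the 50 members, 38 matched the promoter table, and 17 of these have a GC box, 13 a CCAAT box and 5 a TATA box in at least 1 window. Over all 32851 windows of this length, 32.7% hold GGGCGG, 33.8% CCAAT and 12.4% TATAAA.

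Of the 50 members, 25 were well above background on all 15 arrays and 9 on none. Those 9 were Abca6, Abca8b, Abca9, Abca13, Abca16, Abcb5, Abcb11, Abcd2 and Abcg8. A member was tested where any 1 group of a fit had its probe well above background in all of 3 arrays, which left 34 members in each fit. Abca4 was tested in EC-SP and EC-MP only, Abcc10 in the CD157 and CD200 subsets only, and 15 members in neither. The 75th percentile of the arrays lay between 157 and 298 intensity units, and 57.3% to 69.4% of spots were well above background. EC-SP and EC-MP arrays and subset arrays were read with different software versions and scanners, so levels of the sets stand side by side without a test. Bst1, the gene of CD157, was higher in CD157+CD200+ than in CD157-CD200+ cells (4.98 ± 0.25, adjusted p = 0.000107), and Cd200 was higher in CD157-CD200+ than in CD157-CD200- cells (7.79 ± 0.16, adjusted p = 1.31e-08), as the sort labels say. All 8 general endothelial markers (Pecam1, Cdh5, Tek, Tie1, Kdr, Egfl7, Esam, Erg) were well above background on every array.

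The sorts also separated vessel types. All 10 sinusoidal markers (among them Stab2, Lyve1 and Dnase1l3) were lower in EC-SP, with a summed linear level of 20.03 to 22.2 in EC-SP and 294 to 516 in EC-MP. The same 10 were lower in CD157+CD200+ cells (60.1 to 71.7) and in CD157-CD200+ cells (113 to 129) than in CD157-CD200- cells (840 to 1117). Of 10 arterial markers, 9 were higher in EC-SP (summed level 134 to 178, against 46.3 to 60.3 in EC-MP), while Gja4 was lower. In each CD200+ subset 6 arterial markers were higher and 1 was lower than in CD157-CD200- cells. Between CD157+CD200+ and CD157-CD200+ cells, 3 of the 10 sinusoidal markers were lower (Oit3, Fcgr2b and Clec4g) and 0 of the 10 arterial markers were called by limma, with 5 at an unadjusted p under 0.05. In a sorted population, a difference can come from the share of a cell type or from RNA per cell, and these cannot be told apart. The part of vessel type in the results below was not tested.

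In EC-SP against EC-MP, 6 of the 34 tested members were higher (Abcb1a, Abcb1b, Abcg2, Abcc1, Abcb4 and Abca5) and 3 were lower (Abcc2, Abcc5 and Abca7). These 9 are 26.5% of the tested members, beside 16.5% of all 23971 features called in that comparison (9.15% higher and 7.39% lower). The median difference of the members was 0.14, beside -0.003 over all features. In CD157+CD200+ against CD157-CD200- cells, 6 were higher (Abcb1a, Abcb1b, Abcg2, Abcb4, Abca5 and Abca1) and 6 were lower (Abcc2, Abcc3, Abcc4, Abcc9, Abca7 and Abcg1), 35.3% of the members beside 15.2% of 23701 features (8.12% higher and 7.11% lower). The median difference of the 34 tested members was 0.01, beside 0.01 over all features. The lower count was 3 without replicate 1 of either population, without replicate 2 of CD157-CD200- and without replicate 2 of CD157-CD200+ cells, and the lower count of EC-SP against EC-MP was 1 without EC-MP replicate 1. With the authors' own scaling the median of all features in EC-SP against EC-MP lay at -0.17 and 39.8% of the called features were higher, against 55.3% here.

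CD157+CD200+ cells differ from the middle subset, CD157-CD200+, by their CD157 label, and they were also higher in Cd200 itself (1.06 ± 0.16, adjusted p = 0.0136). There 4 members were higher (Abcb1a, Abcb1b, Abcg2 and Abcb4) and 0 lower, 11.8% of the members beside 1.05% of all features (0.802% higher and 0.245% lower). At an unadjusted p under 0.05, 0 of the members were lower there, and 0 were lower with the replicate number, which is also the array slide, as a block. That block called 6 members, or 17.6%, beside 3.06% of all features. The 4 calls became 1 without CD157+CD200+ replicate 1 or 2 or CD157-CD200+ replicate 1, where Abcg2 alone passed. CD157-CD200+ cells differ from CD157-CD200- cells by their CD200 label, and there 6 members were higher (Abcb1a, Abcb1b, Abcg2, Abcb4, Abca5 and Abca1) and 3 were lower (Abcc3, Abcc4 and Abcc9), 26.5% beside 11.8% of all features (6.31% higher and 5.52% lower). With the block 13 members were called there, or 38.2%, beside 22.3% of all features, and 14 in CD157+CD200+ against CD157-CD200- cells, or 41.2%, beside 29.2% of all features. These subset comparisons share arrays and are given side by side only. The median difference of the members was 0.04 between the CD200+ subsets, beside -0.01 over all features. It was -0.01 between CD157-CD200+ and CD157-CD200- cells, beside 0.02 over all features.

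**Figure D1:**
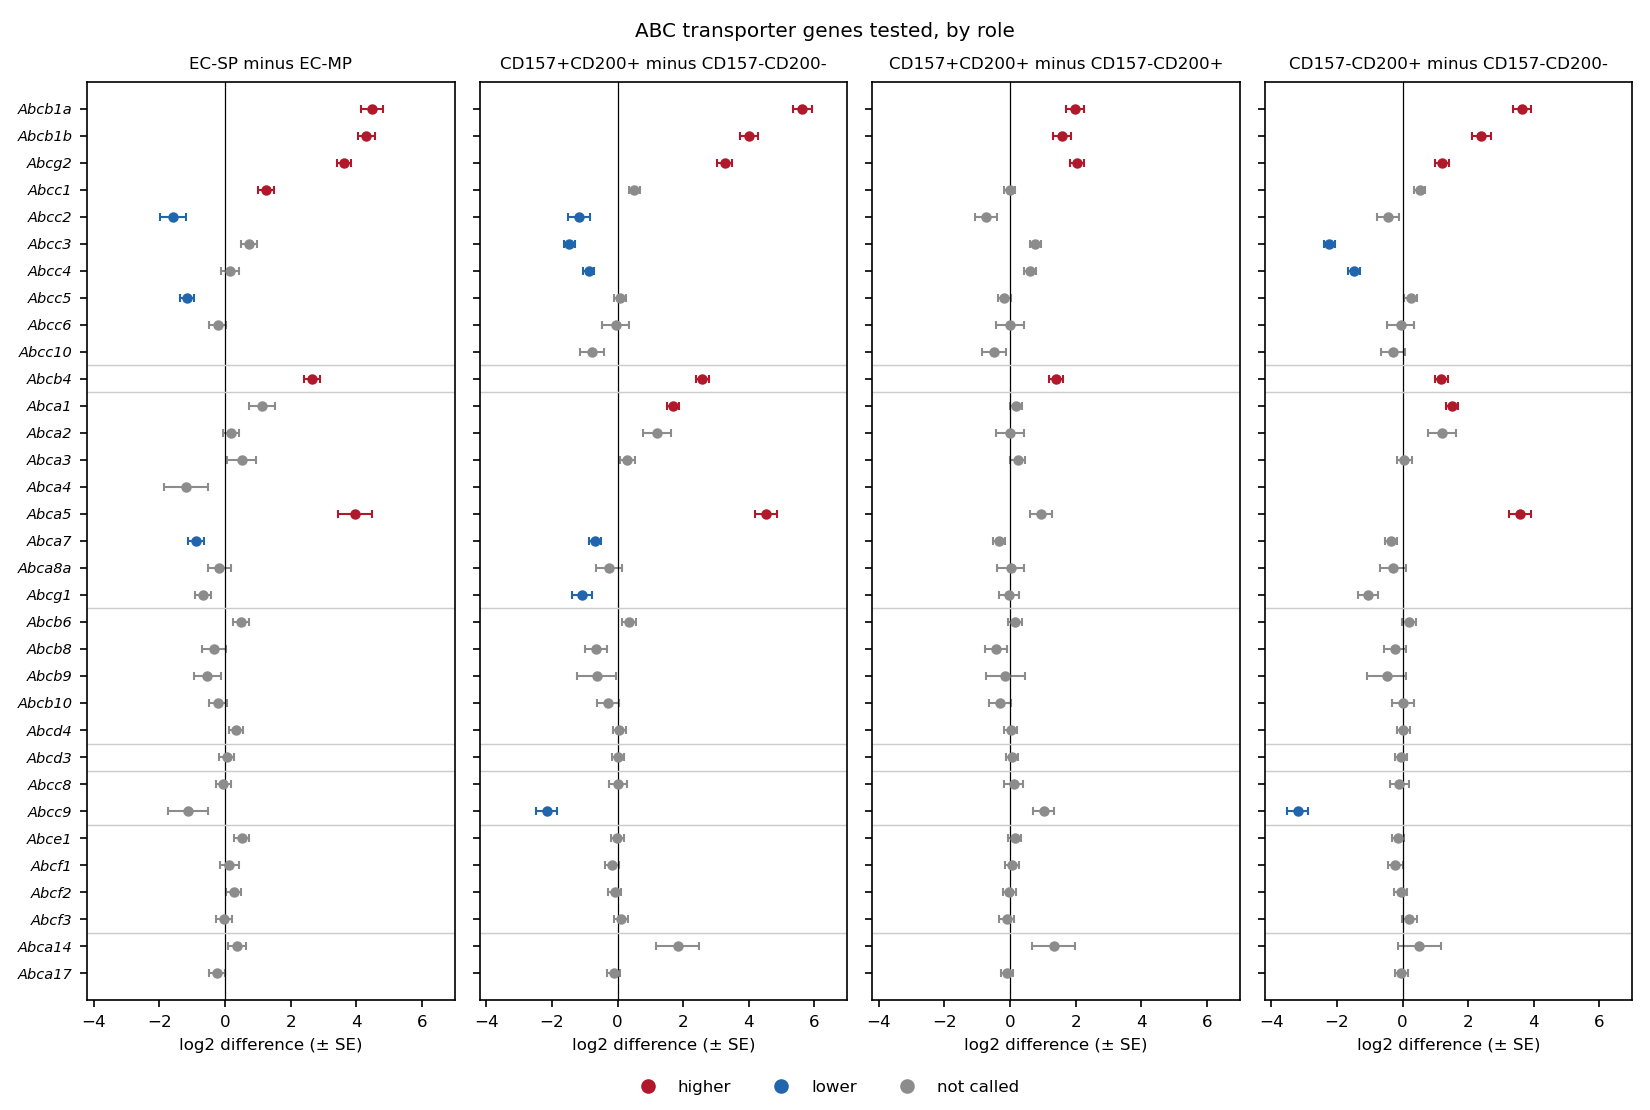
Log2 differences (x axis, ± SE, 3 arrays a group) of tested ABC genes (rows, in blocks by role) in the 4 comparisons, coloured by call. Abcb1a, Abcb1b, Abcg2 and Abcb4 lie to the right in all 4 panels, the mitochondrial, lysosomal, peroxisomal and translation members shown are all grey, and values of Abcb1b and Abca5 against EC-MP or CD157-CD200- rest on signals at background there.

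The P-glycoprotein genes and Abcg2 had the largest positive differences of the efflux pumps. Abcb1a, the P-glycoprotein gene of brain capillaries in mouse, had log2 levels of 3.79, 3.77 and 4.30 in EC-SP, against -1.20, -0.40 and 0.01 in EC-MP. The groups were far apart, and the difference of 4.48 ± 0.33 (SE) is 22.3-fold (adjusted p = 7.67e-05). Its levels were 3.18, 3.30 and 3.06 in CD157+CD200+ cells, 0.97, 1.42 and 1.19 in CD157-CD200+ cells and -2.58, -1.81 and -2.98 in CD157-CD200- cells. The 9 arrays fell into 3 separate steps, with the middle subset between the others. CD157+CD200+ cells exceeded CD157-CD200- cells by 5.64 ± 0.28, or 49.8-fold (adjusted p = 1.24e-06), a log2 difference of 3.95 with normexp background correction, which compresses dim probes. The step with CD157 was 1.99 ± 0.28, or 3.96-fold (adjusted p = 0.0106), and it lost its call without CD157+CD200+ replicate 1 or 2 or CD157-CD200+ replicate 1 (adjusted p = 0.0567, 0.0599 and 0.0565). The step with CD200 was 3.65 ± 0.28, or 12.6-fold (adjusted p = 2.53e-05), and was 2.15 with normexp.

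Abcb1b, the other P-glycoprotein gene of mouse, was measured on a dimmer probe. Its log2 levels were -0.90, -0.36 and -0.31 in EC-SP, against -4.73, -4.56 and -5.21 in EC-MP, where none of the 3 arrays had it well above background. EC-SP was therefore higher by at least 10.6-fold (adjusted p of the fitted difference = 3.36e-05). For such a bound the bright mean is divided by the smallest signal that each array of the dim group could tell from background, or by the probe's own signal where that was larger. Levels were -1.79, -1.32 and -1.67 in CD157+CD200+ cells, -3.38, -3.02 and -3.15 in CD157-CD200+ cells and -5.71, -6.08 and -5.00 in CD157-CD200- cells, where again none of the 3 had it well above background. The order of the subsets was that of Abcb1a, with no overlap. Against CD157-CD200- cells, Abcb1b was higher by at least 5.38-fold in CD157+CD200+ (adjusted p = 8.81e-06) and by at least 1.78-fold in CD157-CD200+ cells (adjusted p = 0.000316). CD157+CD200+ exceeded CD157-CD200+ cells by 1.59 ± 0.28, or 3.02-fold (adjusted p = 0.0272), a call lost with no filter on dim probes (adjusted p = 0.0817) and without any 1 of the 6 arrays of these subsets (adjusted p 0.0791 to 0.138). With normexp, which adds an offset to every signal, the difference was 1.67 for EC-SP against EC-MP, 0.88 for CD157+CD200+ against CD157-CD200- cells and 0.57 for CD157+CD200+ against CD157-CD200+ cells. For CD157-CD200+ against CD157-CD200- cells it was 0.31 and lost its call (adjusted p = 0.15).

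Abcg2, which works as a dimer and exports dyes, urate and sulphated conjugates, was well above background on all 15 arrays. It had log2 levels of 4.59, 4.56 and 4.54 in EC-SP, against 0.85, 1.18 and 0.79 in EC-MP. This is a difference of 3.63 ± 0.21, or 12.4-fold (adjusted p = 2.64e-05). Across the subsets its levels were 4.04, 3.92 and 3.51 in CD157+CD200+ cells, 2.02, 1.60 and 1.68 in CD157-CD200+ cells and 0.81, 0.53 and 0.33 in CD157-CD200- cells. The 3 subsets again did not overlap. CD157+CD200+ cells were 9.61-fold above CD157-CD200- cells (3.26 ± 0.22, adjusted p = 7.17e-06) and 4.15-fold above CD157-CD200+ cells (2.05 ± 0.22, adjusted p = 0.00263). CD157-CD200+ cells were 2.31-fold above CD157-CD200- cells (1.21 ± 0.22, adjusted p = 0.005). All of these calls held in every alternative run. For Abcg2 the step with CD157 was the larger, and for Abcb1a the step with CD200, and the difference between steps was not tested.

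Abcb4, the phosphatidylcholine floppase of the hepatocyte's bile canaliculus, followed the same order. Its log2 levels were 1.72, 1.75 and 1.86 in EC-SP, against -0.57, -1.26 and -0.81 in EC-MP, a difference of 2.66 ± 0.24, or 6.30-fold (adjusted p = 0.000204). Levels were 0.81, 1.04 and 0.71 in CD157+CD200+ cells, -0.59, -0.39 and -0.65 in CD157-CD200+ cells and -2.09, -1.54 and -1.56 in CD157-CD200- cells. Neither sort gave overlapping groups. CD157+CD200+ cells were 5.99-fold above CD157-CD200- cells (2.58 ± 0.20, adjusted p = 2.04e-05, and 1.76 with normexp) and 2.64-fold above CD157-CD200+ cells (1.40 ± 0.20, adjusted p = 0.0116). The CD157 step was lost without CD157+CD200+ replicate 1 or 2 or CD157-CD200+ replicate 1 (adjusted p = 0.0567, 0.0645 and 0.0626). CD157-CD200+ cells were 2.27-fold above CD157-CD200- cells (1.18 ± 0.20, adjusted p = 0.00383), a step of 0.71 with normexp. Abcb1a, Abcb1b and Abcb4 are close relatives, and the probe sequences were not used here, so binding of one transcript to another's probe was not tested.

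Abcb4 was the only tested member of the bile canaliculus. Abcb11, the bile salt export pump, and Abcg8 were above background on no array, and Abcg5, which pairs with Abcg8 in sterol secretion, was above background on 2 of 15. Hepatocyte RNA was present in all groups. The 12 hepatocyte markers summed to a linear level of 1073 to 1359 in EC-SP and 810 to 1511 in EC-MP, and to 780 to 808 in CD157+CD200+, 741 to 794 in CD157-CD200+ and 734 to 795 in CD157-CD200- cells. Of the 9 tested in EC-SP against EC-MP, 3 were higher and 2 lower. Of the 10 tested in the subsets, 6 were lower in CD157+CD200+ and 8 in CD157-CD200+ than in CD157-CD200- cells. Slco1b2 was above background on no array of EC-SP, EC-MP and CD157+CD200+ cells, and Cyp3a11 on no array of EC-SP and CD157+CD200+ cells. Of 11 tested bile duct markers, 6 were higher in EC-SP than in EC-MP. The summed level of the list was 22.9 to 28.8 in EC-SP and 13.4 to 16.02 in EC-MP. In CD157+CD200+ against CD157-CD200- cells, 0 were higher and 1 was lower (Sctr) by limma, with a median difference of 0.59. There 3 passed an unadjusted p under 0.05. Between CD157+CD200+ and CD157-CD200+ cells none was called, 7 passed an unadjusted p under 0.05 and the median difference was 0.68. In CD157-CD200+ against CD157-CD200- cells none was called, with a median difference of -0.21. The part of these cells in the Abcb4 and Abcc2 results was not tested.

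**Figure D2:**
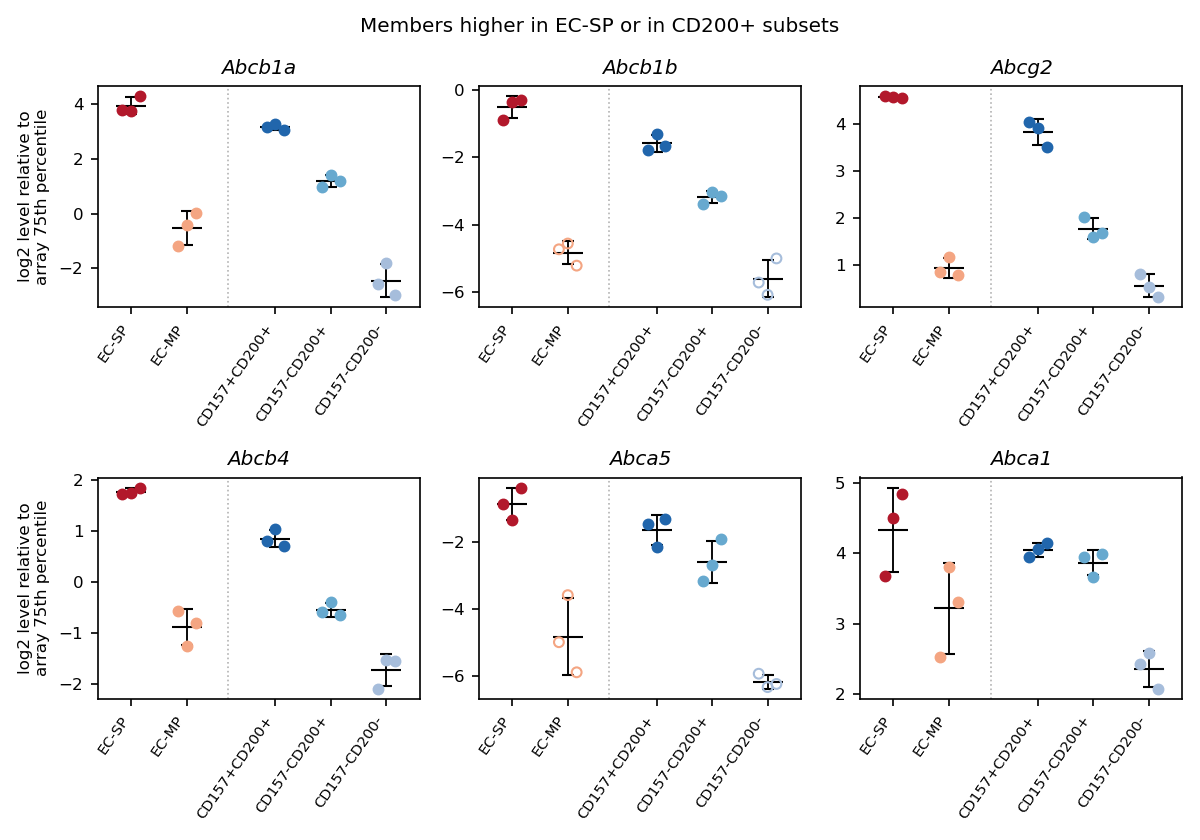
Log2 levels (y axis, relative to the 75th percentile of each array) of 6 members on each array (points) with group mean and SD (bars), for EC-SP and EC-MP left of the dotted line and the 3 subsets right of it. Open points are groups in which no array was well above background; Abcb1a, Abcb1b, Abcg2 and Abcb4 step down over the 3 subsets, while Abca1 overlaps between the CD200+ subsets.

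The Abcc subfamily, which exports organic anions and conjugates, was divided. Abcc3 exports glucuronides and bile acids across the basolateral membrane of liver and gut cells. It had log2 levels of 1.36, 1.04 and 0.96 in EC-SP, against 0.40, 0.68 and 0.10 in EC-MP. The groups did not overlap, and the difference of 0.73 ± 0.24 was not called (adjusted p = 0.0748) and was called with the replicate number as a block (adjusted p = 0.0496), with normexp (adjusted p = 0.0308) and with all 15 arrays in 1 fit (adjusted p = 0.0154). Its levels were 0.30, 0.35 and 0.07 in CD157+CD200+ cells, -0.48, -0.62 and -0.48 in CD157-CD200+ cells and 1.55, 1.85 and 1.72 in CD157-CD200- cells. The middle subset was lowest and CD157-CD200- cells were highest, with no overlap. CD157+CD200+ cells differed from CD157-CD200- cells by -1.47 ± 0.17 (adjusted p = 0.000235). CD157-CD200+ cells differed from CD157-CD200- cells by -2.23 ± 0.17 (adjusted p = 2.03e-05). CD157+CD200+ differed from CD157-CD200+ cells by 0.77 ± 0.17, which was not called (adjusted p = 0.0802) and was called with the block (adjusted p = 0.034) and with normexp (adjusted p = 0.0492).

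Abcc4, which exports cyclic nucleotides and prostaglandins, had that order in the subsets and no difference beyond its spread in the other sort. Its log2 levels were 1.16, 1.24 and 1.095 in EC-SP, against 1.11, 1.45 and 0.47 in EC-MP (0.16 ± 0.28, adjusted p = 0.78), and the groups overlapped. Levels were 1.90, 1.58 and 1.66 in CD157+CD200+ cells, 1.25, 1.03 and 1.06 in CD157-CD200+ cells and 2.79, 2.59 and 2.41 in CD157-CD200- cells. The middle subset was again lowest and CD157-CD200- cells highest. The differences were -0.88 ± 0.18 for CD157+CD200+ against CD157-CD200- cells (adjusted p = 0.00789) and -1.49 ± 0.18 for CD157-CD200+ against CD157-CD200- cells (adjusted p = 0.000423). CD157+CD200+ differed from CD157-CD200+ cells by 0.60 ± 0.18, which was not called (adjusted p = 0.248) and was called with the block (adjusted p = 0.0314).

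Abcc2, which secretes conjugated bilirubin into bile, was lower in both sorts and near the detection limit. Its log2 levels were -3.56, -4.82 and -3.75 in EC-SP (1 of 3 arrays well above background), against -1.97, -3.01 and -2.36 in EC-MP. The difference was -1.59 ± 0.39 (adjusted p = 0.0231). Levels were -3.81, -3.04 and -2.63 in CD157+CD200+ cells (2 of 3 above background), -2.06, -2.61 and -2.60 in CD157-CD200+ cells and -1.95, -1.55 and -2.43 in CD157-CD200- cells. The ends of the subsets were close, at -2.63 and -2.43. CD157+CD200+ differed from CD157-CD200- cells by -1.18 ± 0.34 (adjusted p = 0.0415, and 0.0535 with the block). Both calls changed with the settings. With normexp the differences were -0.43 (adjusted p = 0.137) and -0.44 (adjusted p = 0.101), and with no filter on dim probes the adjusted p was 0.0785 and 0.0933. The call in EC-SP was lost without EC-SP replicate 2 or EC-MP replicate 1 or 3 (adjusted p = 0.0638, 0.0717 and 0.0556), and that in CD157+CD200+ cells without any 1 of 7 of the 9 subset arrays (adjusted p 0.0502 to 0.135).

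Abcc5, an exporter of cyclic nucleotides, had a lower level in EC-SP and no difference between the subsets. Its brightest probe gave log2 levels of 0.61, 0.56 and 0.56 in EC-SP, against 1.81, 1.93 and 1.48 in EC-MP (-1.17 ± 0.22, adjusted p = 0.00725). Subset levels were 0.40, 0.58 and 0.84 in CD157+CD200+ cells, 0.72, 0.60 and 1.05 in CD157-CD200+ cells and 0.52, 0.38 and 0.70 in CD157-CD200- cells. These overlap, and the differences were between -0.18 and 0.26 with adjusted p of at least 0.559. The other 3 probes of Abcc5 gave -0.61, -0.49 and -0.82 for EC-SP against EC-MP, the same sign with smaller size, and the next brightest of them was not called (adjusted p = 0.171).

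Abcc1, the exporter of glutathione conjugates and leukotrienes, was higher in EC-SP by 1.24 ± 0.25, or 2.37-fold (adjusted p = 0.0101). From CD157-CD200- cells it differed by 0.51 ± 0.17 in CD157+CD200+ and by 0.52 ± 0.17 in CD157-CD200+ cells, which were not called (adjusted p = 0.071 and 0.0806) and were called with the block (adjusted p = 0.0115 and 0.0129). Abcc6 was not called in any comparison, with differences between -0.22 and 0.00, and Abcc10 differed by -0.79 to -0.29 in the subsets without a call. Abcc12 and Abcb5 were not tested.

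**Figure D3:**
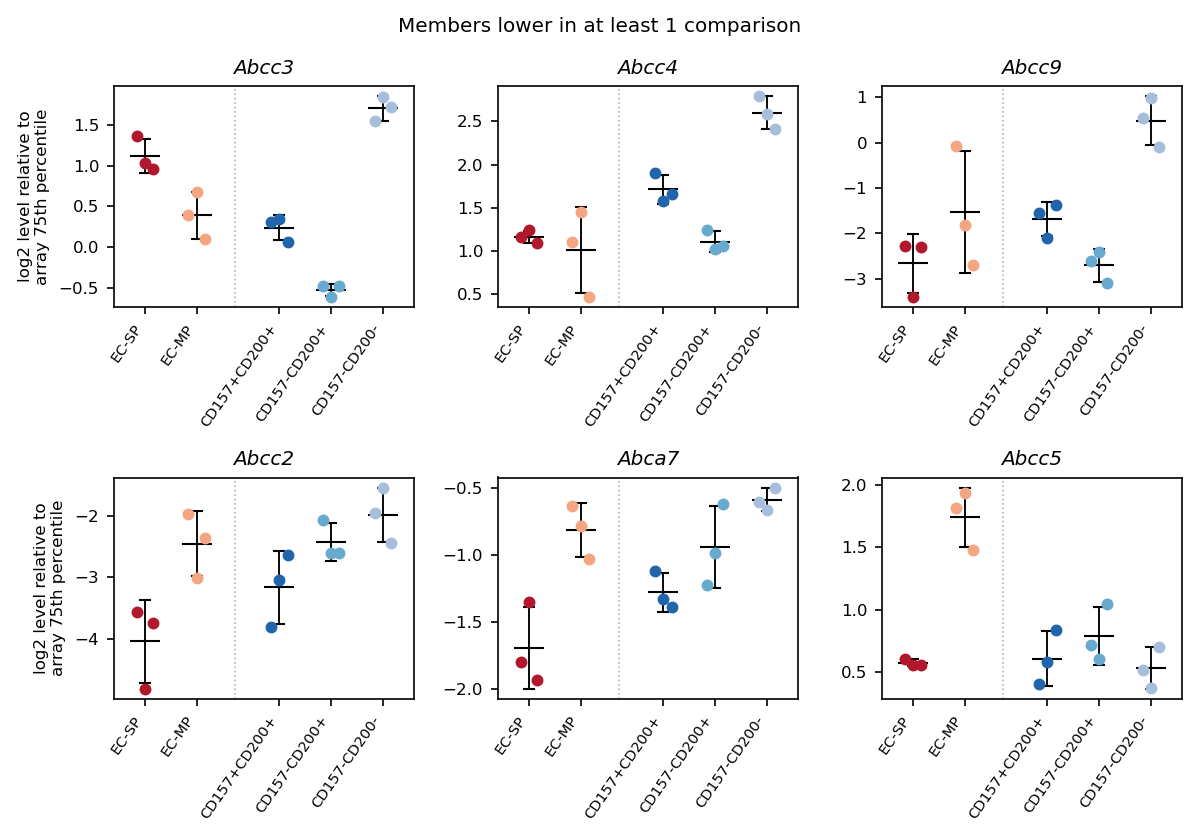
Log2 levels (y axis, relative to the 75th percentile of each array) of 6 members called lower in at least 1 comparison, on each array (points) with group mean and SD (bars). Abcc3, Abcc4 and Abcc9 are lowest in CD157-CD200+ and highest in CD157-CD200- cells, whereas Abcc5 is apart between EC-SP and EC-MP and overlaps among the subsets.

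Among the lipid exporters, Abca5 was detected in EC-SP and in the CD200+ subsets. Abca5, a lipid transporter of late endosomes and lysosomes, had log2 levels of -0.87, -1.33 and -0.38 in EC-SP, against -5.00, -3.59 and -5.89 in EC-MP, where no array was well above background. EC-SP was higher by at least 8.31-fold (adjusted p = 0.00125). In the subsets, levels were -1.46, -2.16 and -1.31 in CD157+CD200+ cells, -3.17, -2.69 and -1.92 in CD157-CD200+ cells and -5.94, -6.34 and -6.24 in CD157-CD200- cells, again not above background. Both CD200+ subsets lay above CD157-CD200- cells and overlapped with each other. Against CD157-CD200- cells, Abca5 was higher by at least 5.21-fold in CD157+CD200+ (adjusted p = 1.37e-05) and by at least 2.70-fold in CD157-CD200+ cells (adjusted p = 8.41e-05). With normexp the 3 fitted differences were 1.49, 1.00 and 0.68 and stayed called. The difference between the CD200+ subsets, 0.95 ± 0.33, was not called (adjusted p = 0.392). A dimmer Abca5 probe, above background on 1 of 15 arrays, gave fitted differences of 0.66, 0.77 and 0.08 for the same 3 comparisons. Its neighbours on chromosome 11, Abca6 and Abca9, were above background on no array.

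Abca1 and Abcg1, the cholesterol exporters of the vessel wall, moved apart in the subsets. Abca1, which loads cholesterol and phospholipid onto apolipoprotein A-I, had log2 levels of 3.94, 4.06 and 4.14 in CD157+CD200+ cells, 3.95, 3.66 and 3.99 in CD157-CD200+ cells and 2.42, 2.58 and 2.08 in CD157-CD200- cells. Both CD200+ subsets were above CD157-CD200- cells, by 1.69 ± 0.19 (adjusted p = 0.000212) and 1.51 ± 0.19 (adjusted p = 0.000568), and they overlapped with each other. Abca1 levels were 3.68, 4.49 and 4.84 in EC-SP, against 2.53, 3.81 and 3.31 in EC-MP. These groups overlapped, yet on each slide EC-SP was the higher, by 1.14, 0.68 and 1.53, and the difference of 1.12 ± 0.39 was not called (adjusted p = 0.0879) but was with the block (adjusted p = 0.0218) and with all 15 arrays in 1 fit (adjusted p = 0.0223). Abcg1, which passes cholesterol to high-density lipoprotein, was lower in CD157+CD200+ than in CD157-CD200- cells (-1.09 ± 0.30, adjusted p = 0.0388). Against CD157-CD200- cells, CD157-CD200+ cells differed by -1.06 ± 0.30 in Abcg1 (adjusted p = 0.0532, and 0.00116 with the block), and EC-SP differed from EC-MP by -0.66 ± 0.24 without a call (adjusted p = 0.0922).

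Abca7, a phospholipid transporter of phagocytes and other cells, was lower in both sorts by small amounts. Its log2 levels were -1.80, -1.35 and -1.93 in EC-SP, against -0.63, -0.79 and -1.03 in EC-MP (-0.88 ± 0.24, adjusted p = 0.0387). Levels were -1.12, -1.33 and -1.39 in CD157+CD200+ cells, -1.23, -0.98 and -0.62 in CD157-CD200+ cells and -0.61, -0.66 and -0.50 in CD157-CD200- cells. CD157+CD200+ and CD157-CD200- cells did not overlap (-0.69 ± 0.19, adjusted p = 0.0401), and the middle subset spanned the gap. These calls were lost with normexp (-0.50, adjusted p = 0.0536, and -0.33, adjusted p = 0.11) and with no filter on dim probes (adjusted p = 0.109 and 0.0912). Leaving out 1 array lost the EC-SP call for 4 of 6 arrays (EC-SP replicates 1 and 3, EC-MP replicates 1 and 2), with adjusted p up to 0.127, and the subset call for 7 of 9 (not CD157-CD200+ replicates 1 and 3), with adjusted p up to 0.115. Of the Kupffer cell markers, which mark liver macrophages, 3 of 8 tested were lower in EC-SP and 6 of 11 in CD157+CD200+ cells, and their part was not tested. The 12 markers summed to a linear level of 27.0 to 31.3 in EC-SP and 26.0 to 35.9 in EC-MP, and to 28.1 to 31.6 in CD157+CD200+, 27.3 to 37.6 in CD157-CD200+ and 40.9 to 54.9 in CD157-CD200- cells. Timd4 was above background on no array. Abca2, Abca3, Abca4 and Abca8a were called in none of the comparisons in which they were tested. With the block, Abca2, a lipid transporter of endosomes, was higher in CD157+CD200+ and in CD157-CD200+ than in CD157-CD200- cells, by 1.21 in each (adjusted p = 0.000614 and 0.000753).

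Abcc9 and Abcc8 encode the sulphonylurea receptors, which regulate ATP-sensitive potassium channels. Abcc9, the receptor of vascular mural cells, had log2 levels of -1.56, -2.10 and -1.37 in CD157+CD200+ cells, -2.61, -2.40 and -3.10 in CD157-CD200+ cells and 0.55, 1.00 and -0.08 in CD157-CD200- cells. The 3 subsets did not overlap, and the order was that of Abcc3 and Abcc4. CD157+CD200+ differed from CD157-CD200+ cells by 1.03 ± 0.32, which was not called (adjusted p = 0.28, and 0.167 with the block). The differences were -2.16 ± 0.32 for CD157+CD200+ against CD157-CD200- cells (adjusted p = 0.00121, and -1.29 with normexp) and -3.19 ± 0.32 for CD157-CD200+ against CD157-CD200- cells (adjusted p = 0.000129, and -1.67 with normexp). In EC-SP, Abcc9 levels were -2.27, -3.41 and -2.29, against -0.07, -1.82 and -2.70 in EC-MP. The groups overlapped, and the difference of -1.13 ± 0.61 was not called (adjusted p = 0.255). Abcc8 differed by -0.10 to 0.11 and was not called.

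Markers of mural cells were read beside Abcc9, and their part in its differences was not tested. Of 10 tested stellate and mural markers, 3 were higher (Rgs5, Pdgfrb and Col3a1) and 2 lower (Lrat and Dcn) in CD157+CD200+ than in CD157-CD200- cells. The 12 markers summed to a linear level of 18.2 to 27.8 in CD157+CD200+ and 18.1 to 34.4 in CD157-CD200+ cells, against 5.40 to 5.98 in CD157-CD200- cells, and to 8.11 to 13.1 in EC-SP, against 2.65 to 3.41 in EC-MP. Kcnj8, the pore that pairs with Abcc9, was above background on no array of EC-SP, CD157+CD200+ and CD157-CD200+ cells. Reln was above background on no array of EC-SP and of any subset. Kcnj11, the other pore, was tested and not called in any comparison, with differences between -0.39 and 0.24.

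The intracellular members described here were not called by limma in any of the 4 comparisons. Abcb6, Abcb8 and Abcb10, which serve haem and iron metabolism in mitochondria, differed by 0.15 to 0.50, by -0.65 to -0.22 and by -0.30 to 0.02 over the 4 comparisons. Abcb9, a lysosomal peptide transporter, differed by -0.63 to -0.15, and Abcd4, which exports cobalamin from lysosomes, by 0.02 to 0.33. Of the 4 members without a membrane domain, Abce1, which recycles ribosomes, and Abcf1, Abcf2 and Abcf3, which act with ribosomes, 0 were called, with differences between -0.21 and 0.51 and 0 of 16 tests at an unadjusted p under 0.05.

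Abcd3, a peroxisomal importer of fatty acids, differed by -0.05 to 0.06 and was not called. Abca14 and Abca17, members found in rodents, were tested and not called. The brightest Abca17 probe gave 6.35 in EC-SP, against 6.60 in EC-MP (mean log2 level), with differences between -0.24 and -0.03 in all comparisons. The other Abca17 probe, for the same transcript, was well above background on no array, with differences between -0.12 and 1.12. The high level of Abca17 therefore rests on the brightest probe alone. Abca14 differed by 1.84 ± 0.66 between CD157+CD200+ and CD157-CD200- cells (adjusted p = 0.0987), and its slide values of 0.90, 0.31 and 4.31 show that replicate 3 carried most of it.

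The difference between EC-SP and EC-MP was tested against that between CD157+CD200+ and CD157-CD200- cells, which shares no array with it. Of the 33 members tested in both sorts, 5 were called higher in both (Abca5, Abcb1a, Abcb1b, Abcb4 and Abcg2), 2 lower in both (Abca7 and Abcc2) and 19 in neither. The remaining 7 were called in 1 sort. Of all features, 16.5% were called in EC-SP against EC-MP and 15.2% in CD157+CD200+ against CD157-CD200- cells. The share of all features called in both was not counted, so the overlap of the members has no background to be read against. Abca5 and Abcb1b passed the filter on dim probes only through the groups where they are high. Abcc2 did so too, through EC-MP in the first sort and through CD157-CD200+ and CD157-CD200- cells in the subsets. The calls of these members are therefore a description of detection as well as of level. The test of the difference of the differences called 2 of the 33 members, Abcc3 and Abcc5, 1 in each direction. Over all 22588 features 5.81% were called (2.49% positive and 3.32% negative), a share close to that of the members. Abcc3 differed between the sorts by 2.19 ± 0.27 (adjusted p = 0.000146), with 0.73 in EC-SP against EC-MP and -1.47 in CD157+CD200+ against CD157-CD200- cells. Abcc5 differed between the sorts by -1.24 ± 0.28 (adjusted p = 0.0143), with -1.17 in EC-SP against EC-MP and 0.08 in CD157+CD200+ against CD157-CD200- cells. With the second brightest Abcc5 probe this was -0.42 and lost its call (adjusted p = 0.579). Abcb4 differed by 0.07 ± 0.30, Abcb1b by 0.31 ± 0.39, Abcg2 by 0.36 ± 0.29 and Abcb1a by -1.15 ± 0.45, none of them called. With normexp Abcb1a differed between the sorts by -0.01, and Abcb1b (0.79, adjusted p = 0.0193) and Abcc4 (0.91, adjusted p = 0.0377) were called. Abcc4 was also called without EC-MP replicate 2 (1.26, adjusted p = 0.0274). With the block 7 of the 33 members were called, beside 15.4% of all 22588 features. Among them were Abcc3, Abcc4 (1.04, adjusted p = 0.0132) and Abcc1 (0.73, adjusted p = 0.0103) with a positive difference. Abcc5, Abca2 and Abcb1a (-1.15, adjusted p = 0.0365) had a negative one.

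**Figure D4:**
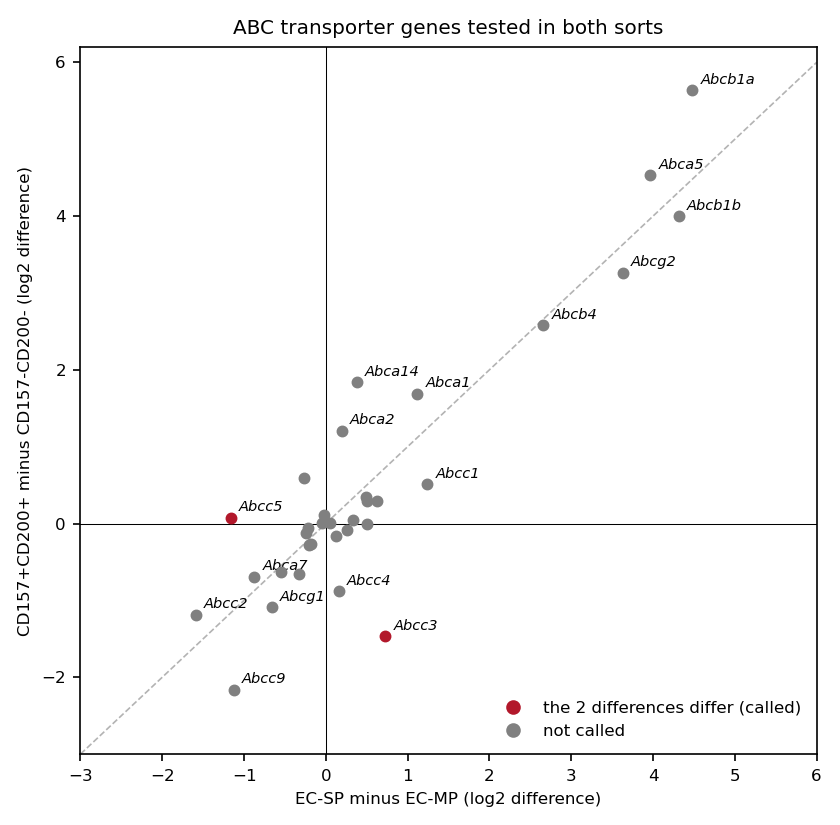
Log2 difference of EC-SP minus EC-MP (x axis) and of CD157+CD200+ minus CD157-CD200- (y axis) for the 33 members tested in both sorts, with the line of equal values dashed. Abcb1a, Abcb1b, Abcg2, Abcb4 and Abca5 lie at the upper right, and the called members Abcc3 and Abcc5 lie away from the line.

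Genes that work with these transporters were read from fixed lists. Of 16 genes of sterol efflux, 1 was higher in EC-SP (Scarb1, a lipoprotein receptor, 1.51 ± 0.27, adjusted p = 0.00571) and 2 were lower (Apoa1 and Soat1). In CD157+CD200+ against CD157-CD200- cells, 2 were higher, namely Nr1h3 (1.87 ± 0.26, adjusted p = 0.00084), a sterol-sensing receptor that induces Abca1 and Abcg1, and Scarb1 (1.29 ± 0.22, adjusted p = 0.00282), and 4 were lower (Mylip, Apoe, Apoa1 and Soat1). Mylip, another target of that receptor, differed by -1.47 ± 0.17 (adjusted p = 0.000315). Scarb1 was higher in CD157+CD200+ than in CD157-CD200+ cells too (1.44 ± 0.22, adjusted p = 0.0136).

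Of 18 tested regulators of transporter genes, 4 were higher in EC-SP than in EC-MP: Trp53, Hif1a, Nfe2l2 and Foxo1. Trp53 differed by 1.35 ± 0.20 (adjusted p = 0.00227), Hif1a by 1.67 ± 0.36 (adjusted p = 0.0137) and Nfe2l2, the oxidative stress factor, by 0.86 ± 0.22 (adjusted p = 0.0269). Nr1h4, the bile acid receptor that induces Abcb4 and Abcb11 in hepatocytes, was lower in EC-SP (-2.01 ± 0.35, adjusted p = 0.00483). Nr1h4 was higher in CD157+CD200+ than in CD157-CD200- cells (2.08 ± 0.18, adjusted p = 4.42e-05). Esr1 (1.97 ± 0.24, adjusted p = 0.000403) was the other of 2 regulators higher there, and Rxra was lower. Abcb4 was higher in both sorts, and a link between Nr1h4 and Abcb4 was not tested. Of 19 tested regulators, 0 were called in CD157+CD200+ against CD157-CD200+ cells by limma, where 3 passed an unadjusted p under 0.05.

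P-glycoprotein and Abcg2 are also pumps of brain capillaries, so markers of that endothelium were counted. Of 11 tested, 6 were higher in EC-SP than in EC-MP and 0 were lower, led by Spock2 (5.32 ± 0.26, adjusted p = 1.81e-05) and the glucose carrier Slc2a1 (3.71 ± 0.21, adjusted p = 2.63e-05). Of 9 tested in the subsets, 3 were higher (Spock2, Mfsd2a and Slc2a1) and 1 lower (Cldn5) in CD157+CD200+ than in CD157-CD200- cells. Mfsd2a, a lipid carrier of those capillaries, was also higher in CD157+CD200+ than in CD157-CD200+ cells (2.03 ± 0.34, adjusted p = 0.0209). Mfsd2a was above background on no array of EC-MP, CD157-CD200+ or CD157-CD200- cells. It passed the filter on dim probes only through the groups where it is high, and its differences rest on signals at background in the others. Slco1c1, a thyroxine carrier of that barrier, was tested in EC-SP against EC-MP and not called (-0.13 ± 0.23, adjusted p = 0.771), and Slc22a8 was not tested. The 12 markers summed to a linear level of 179 to 213 in EC-SP, against 71.2 to 92.3 in EC-MP. The sums were 114 to 184 in CD157+CD200+ cells, 93.6 to 153 in CD157-CD200+ cells and 110 to 153 in CD157-CD200- cells.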

How the data were processed

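RNA of 5 sorted populations, each as 3 replicates, was hybridised to 15 one-colour Agilent mouse arrays after extraction and whole-transcriptome amplification, per the labels' protocols. Scanner files were written with Agilent Feature Extraction 10.10.1.1 (EC-SP and EC-MP) or 11.5.1.1 (subsets), per the file headers. The deposited processed intensity of a spot is background-subtracted and spatially corrected, per the file headers. The authors' deposited series values are that intensity times an array-wise constant (5.46 to 10.1), on a linear, uncentred scale, with column medians of 218 to 335. The sources used here do not give the basis of the constant.

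Processed intensities were divided by the array's 75th percentile, over probes that are no control spots, and log2 transformed. Outlier spots were left out (110 to 213 of 59305 per array), no spot was saturated, and spots of 1 probe were averaged. A probe entered a fit where any 1 group had it well above background in all of 3 arrays. The brightest such probe stood for a gene, and of 55681 probes 28059 carried a symbol. EC-SP with EC-MP, and the 3 subsets, were each fitted with limma 3.58.1 (lmFit and eBayes, R 4.3.3, with the package data.table at version 1.17.8), and the difference between both sorts in 1 model of the arrays concerned. Tests were two-sided, with Benjamini-Hochberg adjustment over all features and a threshold of 0.05. The fits were tested on simulated data. The number of arrays limits the precision, and a member that was not called may still differ. Promoter letters were counted with Python 3.11.15 and pandas 2.3.3, and plots made with matplotlib 3.10.9.

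Replicate numbers equal slides (6 slides, each with 1 array of every group of its set). Deviations of same-numbered arrays from their group means correlated at 0.27 to 0.33 (3 pairs, EC-SP and EC-MP) and 0.27 to 0.63 (9 pairs, subsets). Because the number is also the slide, paired samples and a shared slide cannot be told apart. The main fits do not use the number, and the replicate block does. The slide as a separate block would be the same fit. Alternatives were normexp (offset 50, on the median signal, since no mean signal was used here), quantile normalization, the authors' table, no filter or a stricter filter on dim probes, the second brightest probe, all 15 arrays in 1 fit, the replicate block, and leaving out each array.

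Some results are not reported here. Members and gene lists were chosen with earlier results of these data known. Genes described with values on every array were the 6 markers given for the family (Abcb1a, Abcb1b, Abcg2, Abcb4, Abcc3 and Abcc4), members called in at least 2 of the 4 comparisons and members whose difference between the sorts was called. Of a partner list, at most 3 called genes with the lowest adjusted p were given values. Kcnj11, Slco1c1, Abca14, Abca17, Abcc1 and other members outside that rule were named after their values were seen.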

Additional observations from a re-analysis of the deposited data

Results flagged for a closer look

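Of the 33 members tested in both sorts, Abcc3 and Abcc5 differed by unlike amounts in the 2 sorts, by a test of the difference itself in limma. These 2 calls are a share of the members close to the 5.81% called of all 22588 features. For Abcc3 the difference of the differences was 2.19 ± 0.27 (adjusted p = 0.000146). EC-SP exceeded EC-MP in 3 of 3 slides and CD157+CD200+ was below CD157-CD200- cells in 3 of 3 slides, and the call held in all 22 alternatives, between 1.80 and 2.34. For Abcc5 the difference of the differences was -1.24 ± 0.28 (adjusted p = 0.0143), and it was not called with the second brightest probe (-0.42, adjusted p = 0.579).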

How the results depend on the processing

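Counts of called members were recomputed under each alternative. Of these counts, 159 stayed within 1.5 times the reported one and 15 did not. The EC-SP lower count was 1 with no filter on dim probes and 1 to 3 on leaving out an array, and the CD157+CD200+ against CD157-CD200- lower count was 3 with no filter and 3 to 5 on leaving out an array. The CD157+CD200+ against CD157-CD200+ higher count was 1 to 4 on leaving out an array. For the difference between the sorts, the higher count was 3 with normexp, 3 with the replicate block and 1 to 2 on leaving out an array, and the lower count was 0 with the second brightest probe and 4 with the replicate block. No filter tests 36786 features, so the adjustment is stricter; the cause of the other changes was not tested. Of the members described, the replicate block changed no call beyond those given above. Of single-gene results, 662 kept sign and call, 47 lost and 11 gained a call, and 6 changed sign, none of them called. The sign changes were Abcc4 in EC-SP against EC-MP (-0.0078 with the authors' table, and -0.11 to 0.38 on leaving out an array, the lowest without EC-MP replicate 3) and Abcb4 in the difference between the sorts (-0.080 with the authors' table, and -0.12 to 0.25 on leaving out an array, negative without EC-MP replicate 2 and without CD157-CD200- replicate 2 or 3). The replicate block called 6923 features for CD157+CD200+ against CD157-CD200- (3609 without it), 725 for CD157+CD200+ against CD157-CD200+ (248), 5280 for CD157-CD200+ against CD157-CD200- cells (2805) and 3480 for the difference between the sorts (1313). Called features of that difference were positive in 29.7% with the authors' table and 54.7% with normexp, against 42.8%. Signals near background limit Abcb1b, Abca5 and Abcc2. With no filter, features called were 2284 for EC-SP against EC-MP, 166 for CD157+CD200+ against CD157-CD200+ cells and 852 for the difference between the sorts, and with normexp 376 for CD157+CD200+ against CD157-CD200+ cells.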

Other observations

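Genes that work beside the intracellular members were counted from lists of their partners. None of 12 peroxisome partners was called by limma in any of the 4 comparisons. Of 14 genes of mitochondrial haem and iron-sulphur synthesis, 3 were lower in EC-SP than in EC-MP, led by Slc25a37, the mitochondrial iron importer (-2.02, adjusted p = 0.00108), with Nfs1 and Fech. Slc25a37 was also the 1 gene of the list lower in CD157+CD200+ than in CD157-CD200- cells (-1.12). Of 10 partners in translation and ribosome recycling, Etf1, a peptide release factor, was higher in EC-SP (1.11). Of 7 peptide loading genes, 1 was called, Calr, lower in CD157+CD200+ than in CD157-CD200- cells (-0.53). Tap1 and Tap2, the peptide transporters of antigen presentation, were not called, and Cftr was above background on no array. Of 12 lymphocyte markers, 6 were above background on no array and the other 6 on all arrays of every group. Of the 6 tested, 0 were called by limma in any of the 4 comparisons. In CD157+CD200+ against CD157-CD200- cells, 2 of them passed an unadjusted p under 0.05.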
